A study of Caenorhabditis elegans with 4 samples.

Results

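The miRNAs of *Caenorhabditis elegans* are numbered in the order in which they were named, so the highest numbers belong to those found last, mostly in deep sequencing data. Here the mature miRNAs numbered 780 or above were examined, without miR-790, miR-791, miR-793, miR-794, miR-795 and miR-797. This choice rests on names alone and took 38 of the 205 miRNAs in the deposited table, from 30 of its 132 hairpins. Small RNA was sequenced from whole wild-type N2 Bristol animals, the standard laboratory strain, at the last larval (L4) stage. The HS animals were heat shocked at 35°C and the CTRL animals stayed at 20°C, with 2 libraries in each group. For the time at 35°C the sample characteristics state 4 h, whereas the treatment protocol and the published methods state 6 h. Each miRNA had a single level, the authors' mean over all 4 libraries, so no spread between replicates, no depth and no difference between HS and CTRL is given below, and neighbours in any order of levels cannot be said to differ. A pooled level can be carried by either group, so an order given below need not hold within HS or within CTRL.

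miRNAs are cut from hairpin precursors, in animals usually first by Drosha in the nucleus and then by Dicer in the cytoplasm. One arm of the resulting duplex, 5p or 3p by its side of the hairpin, is kept in an Argonaute protein and guides it to mRNAs, mainly by pairing of the seed near its 5′ end. Mirtrons are hairpins that make up a whole short intron, and splicing takes the place of the first cut.

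The supplementary seed lists spelled out 6-base seeds (bases 2 to 7) for 19 miRNAs, and 4 of these were late-numbered. The seeds of 3 of them are shown to let them be told apart, and that of miR-1817 is left out. All 19 seeds differed, so no late-numbered seed was shared within these lists. The lists belong to the study's search for targets of miRNAs chosen by its comparison of HS with CTRL. They do not cover the other late-numbered miRNAs. The seed of miR-788-5p held 4 G or C bases, that of miR-4936 held 2 and that of miR-5592-3p held 1. The seed listed for miR-4936 is that of the read form the study took as predominant, whose 5′ end differs from that of the reference miRNA, so it is not the seed of miR-4936 as annotated. For miR-788-5p and miR-5592-3p the start of the seed was not checked against the annotated 5′ end.
miR-788-5p: CCGCUU
miR-4936: UUGCUU
miR-5592-3p: GUAUUA

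The late-numbered miRNAs were weak species in these animals. Their levels ran from 56.5 to 21961 mean normalized counts, that is counts divided by a size factor for each library, with a median of 473, against a range of 51.5 to 1136489 and a median of 1881 over the other 167 miRNAs. They made up 18.5% of the listed names but 0.649% of the summed level. Of the 38, 8 lay above the median of the whole table (1512) and 22 were among its 68 lowest, while 94 of the other 167 lay above that median. Levels under 100 were found for 10 late-numbered and for 10 other miRNAs, or 26.3% and 5.99%. The median was 395 for the 10 rows of the left-out numbers, 1602 for the 54 miRNAs numbered from 100 to below 780 and 3445 for the 98 miRNAs numbered below 100. Levels of different sequences also carry differences in ligation and amplification, so these orders describe reads and not molecules per animal.

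**Figure D1:**
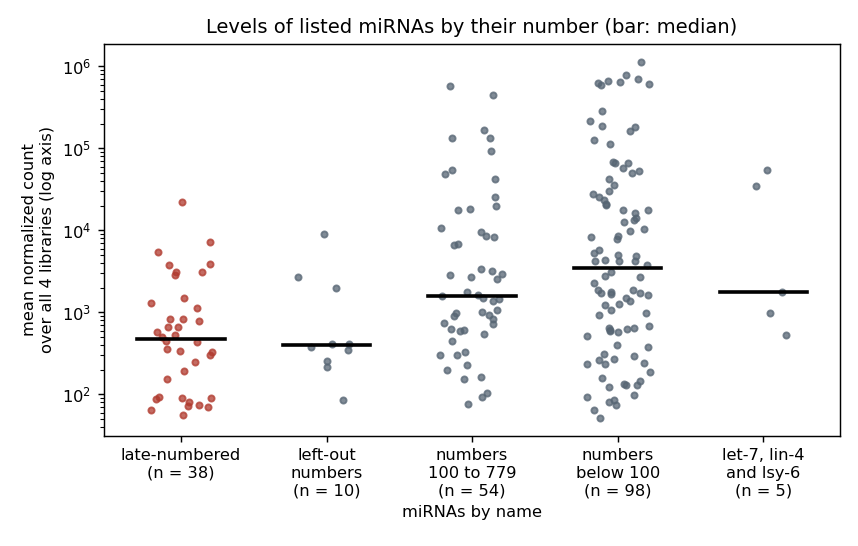
Mean normalized count over all 4 libraries (log axis) of each listed miRNA, grouped by its number, with a bar at each median. The late-numbered miRNAs had a median of 473, and miR-788-5p was their one member above 10000.

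A few species held most of the signal. miR-788-5p, at 21961 mean normalized counts, was the most abundant late-numbered miRNA and the 40th of the table. It alone held 34.2% of the level summed over the 38, and without it their share of the whole table was 0.428%. miR-5592-3p followed at 7141, ranked 62nd, and miR-1829c at 5418, ranked 66th. These were the 3 late-numbered miRNAs among the 68 highest of the table.

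Next came miR-1829b at 3909, miR-785 at 3788, miR-4936 at 3102, miR-5592-5p at 3088 and miR-1022-5p at 2836 mean normalized counts. How these levels, that of miR-4936 among them, divide between HS and CTRL is not shown by the pooled mean, and their place above the table median may not describe both groups. miR-2214-5p, at 1511, lay just under the table median, which was set by the mirtron miR-62. miR-1830-3p had 1295 and miR-1820-5p 1128. The 10 most abundant together held 84.2% of the late-numbered signal.

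The middle of the range was held by miR-1020-3p (840.3), miR-787-3p (834), miR-786-3p (792), miR-4813-3p (659), miR-2212-5p (658), miR-1018 (573), miR-4816-3p (533) and miR-1829a-5p (494). miR-786 is known in *C. elegans* for keeping the defecation rhythm of the intestine regular. Below the median of the late-numbered miRNAs stood miR-788-3p (453), miR-1830-5p (435), miR-2209a-3p (359), miR-799 (341), miR-1822-3p (329.9), miR-1817 (299.6), miR-1821 (251), miR-4816-5p (194) and miR-5551-5p (154). The 10 species under 100 were miR-4812-5p (93.2), miR-1829a-3p (91.4), miR-786-5p (90.1), miR-800-5p (88.4), miR-800-3p (81.8), miR-2216-5p (73.9), miR-798 (72.5), miR-784-3p (70.2), miR-4813-5p (64.0) and miR-5547-5p (56.5). With the lowest level of the table at 51.5, these lie near the bottom of what was listed.

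**Figure D2:**
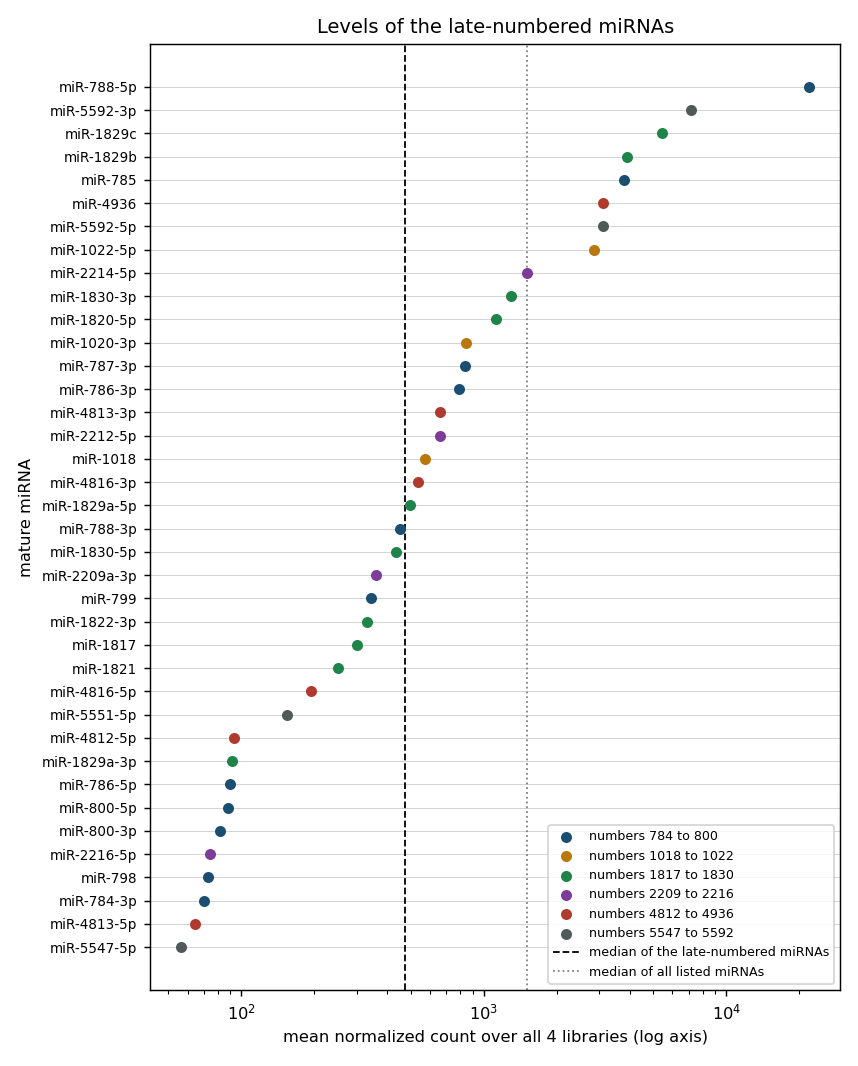
Mean normalized count over all 4 libraries (log axis) of the 38 late-numbered miRNAs, coloured by number, with lines at their own median (473) and at the median of all listed miRNAs (1512). The 8 points right of the dotted line run from miR-1022-5p at 2836 to miR-788-5p at 21961.

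Levels did not follow the numbers in a single order. The 11 miRNAs from miR-784 to miR-800 included the most abundant one but also 5 under 100, and had a median of 341. The 3 from miR-1018 to miR-1022 had a median of 840.3, with miR-1018 the lowest at 573. The 10 from miR-1817 to miR-1830 had a median of 465, the 4 from miR-2209 to miR-2216 one of 508 and the 6 from miR-4812 to miR-4936 one of 363. The 4 with the highest numbers split into both arms of miR-5592, at 7141 and 3088, and miR-5551-5p and miR-5547-5p, at 154 and 56.5.

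The share of annotated hairpins that appeared in the table was smaller at higher numbers. Ensembl release 115 annotates 135 late-numbered hairpins, and 31 of these (23.0%) matched a name in the table, among them both copies of miR-5592. Of the other annotated hairpins 100 of 126 (79.4%) matched. Among late-numbered hairpins, 8 of 12 from miR-784 to miR-800 were listed, 3 of 5 from miR-1018 to miR-1022 and 8 of 16 from miR-1817 to miR-1833. The counts were 4 of 24 for miR-2207 to miR-2953, 4 of 33 for miR-4805 to miR-4938 and 4 of 45 for miR-5545 to miR-12134. The miRNA reference used for mapping is not given in the sources used here, and why a hairpin was outside the table was not tested.

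**Figure D3:**
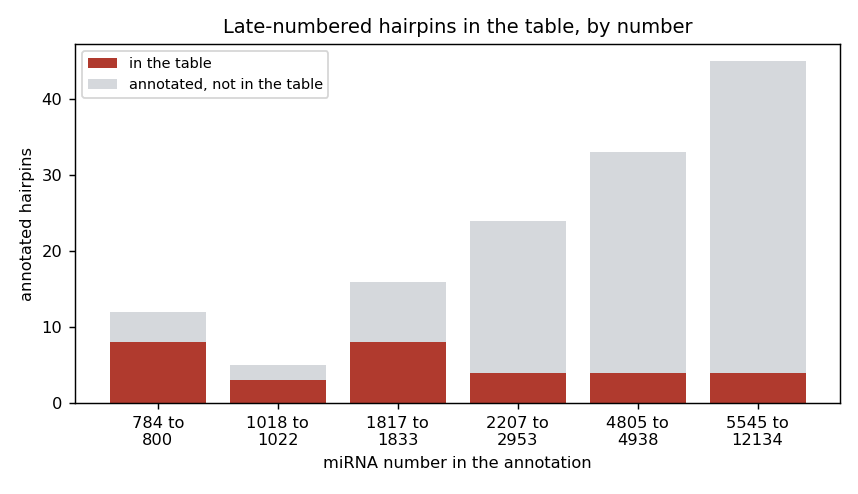
Annotated late-numbered hairpins by number (x axis), stacked as those in the table and those annotated but not in the table (y axis, hairpins). The listed part was 8 of 12 in the lowest numbers and 4 of 45 in the highest.

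Both arms were listed for 8 of the 30 late-numbered hairpins (26.7%), against 65 of the 102 other hairpins (63.7%). The higher arm exceeded the lower one by a median of 4.19-fold, with a range of 1.08-fold to 48.5-fold, while the median over the other 65 hairpins was 31.7-fold. The 3p arm was the higher one in 5 of the 8 and the 5p arm in 3. A gap of 10-fold or more was found in 2 of the 8 late-numbered hairpins and in 39 of the 65 others. The 65 include 4 of the 6 hairpins with left-out numbers, miR-790, miR-791, miR-795 and miR-797. In these 4 the gap ran from 1.01-fold to 7.64-fold with a median of 2.00-fold. The higher arms of the late-numbered hairpins had a median of 726 mean normalized counts and those of the others 25761. The lower arms had medians of 143 and 597, and the lowest level listed for any miRNA was 51.5. A hairpin entered only with both arms listed, so a higher arm not far above that level could not show a wide gap. The fold and the count at 10-fold therefore depend on level. So can the share with both arms listed, as no row lies below 51.5. The median hairpin level, with listed arms summed, was 690 for late-numbered hairpins and 9467 for the others. Whether the gaps or that share differ at equal level was not tested.

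miR-788 had the widest gap, with 21961 mean normalized counts for 5p and 453 for 3p, a 48.5-fold difference. miR-4813 was 10.3-fold higher in 3p than in 5p (659 and 64.0), and miR-786 was 8.80-fold higher in 3p (792 and 90.1). miR-1829a was 5.41-fold higher in 5p (494 and 91.4). In miR-1830, miR-4816 and miR-5592 the 3p arm was higher by 2.98-fold, 2.75-fold and 2.31-fold. The arms of miR-800 were nearly level, at 88.4 for 5p and 81.8 for 3p. Without values per library it is unknown whether either arm exceeded the other.

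**Figure D4:**
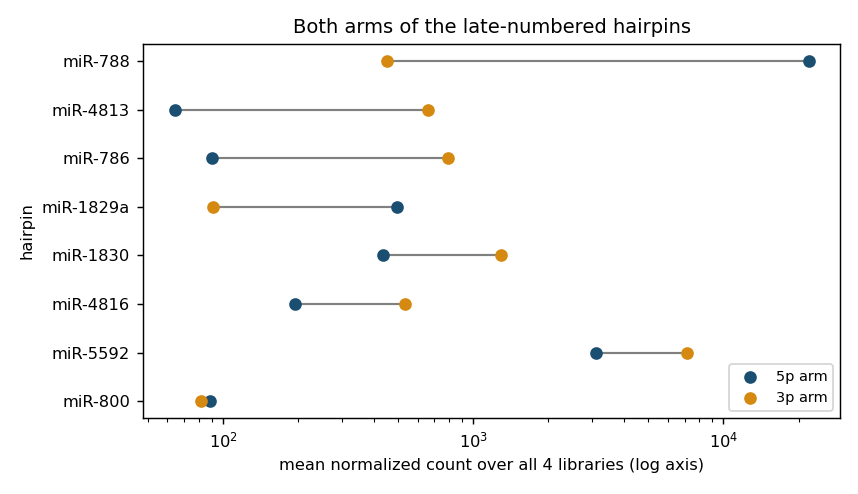
Mean normalized count over all 4 libraries (log axis) of the 5p and 3p arms of the 8 late-numbered hairpins listed with both arms, joined by a line. The line is longest for miR-788 (48.5-fold) and shortest for miR-800 (1.08-fold).

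The other 22 late-numbered hairpins had 1 row each. Of these rows 8 were named 5p, 5 were named 3p and 9 carried no arm in their name. The annotation holds mature spans on both arms for 17 of these 22 hairpins, so the partner was known but not in the table. For the remaining 5 it holds a single span. By its position in the hairpin this span is the 3p arm for miR-1018, miR-4936, miR-798 and miR-799, and the 5p arm for miR-1817. For miR-785, miR-1821, miR-1829b and miR-1829c both arms are annotated and the name in the table does not say which was counted.

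The late-numbered hairpins were shorter than the others as annotated. Over the 29 hairpins with a single annotated copy, the length ran from 56 to 110 bases with a median of 77, against a median of 98 over 100 other hairpins. Lengths of up to 70 bases were annotated for 11 of the 29 and for 3 of the 100, miR-790 among them. The 100 include the 6 left-out hairpins, which were also under 98 bases, from 70 for miR-790 to 92 for miR-793. In 9 of 24 late-numbered hairpins with both arms annotated, the annotated hairpin began at the first base of the 5p arm and ended at the last base of the 3p arm, as in 1 of 92 others. These 9 were miR-1020, miR-1829a, miR-1829b, miR-1830, miR-2209a, miR-2212, miR-2214, miR-2216 and miR-4816. An annotated end states where the record stops and not where the transcript does. The mature spans were alike, with a median of 22 bases over 32 late-numbered and 160 other listed arms, and a range of 21 to 26 and of 19 to 26 bases.

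**Figure D5:**
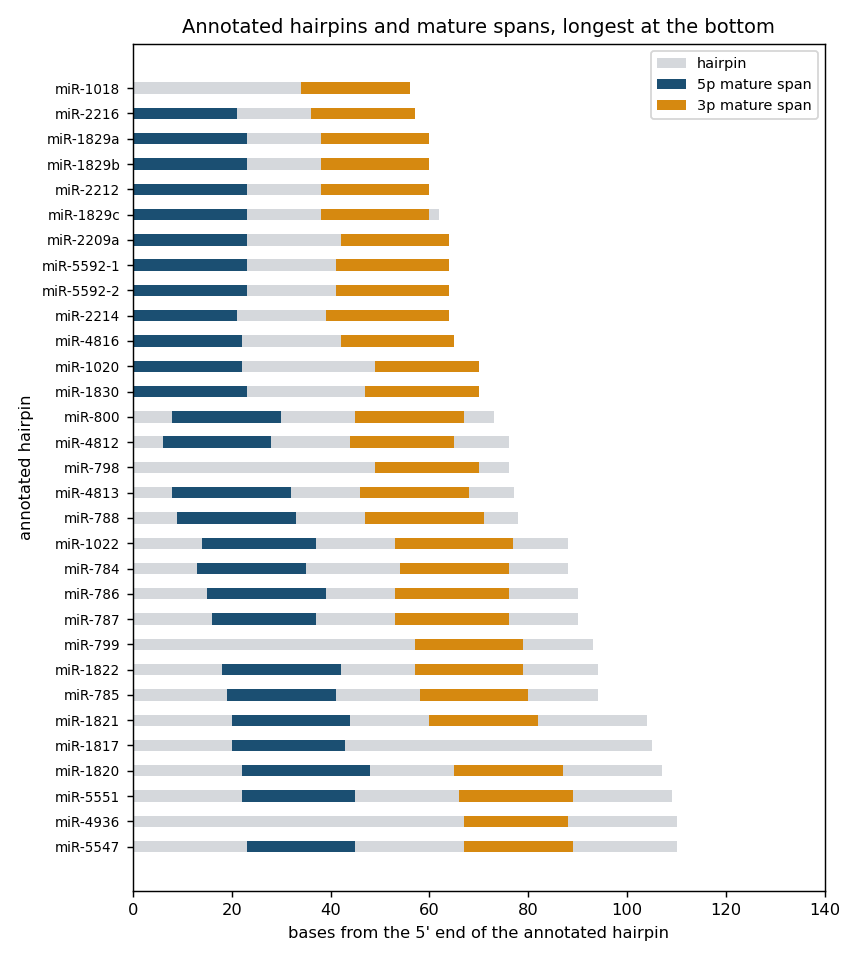
Annotated late-numbered hairpins drawn from their 5′ end (x axis, bases), with the mature spans of the 5p and 3p arms inside each grey hairpin. Where both arms are annotated, hairpins of up to 70 bases have at most 2 bases outside the arms and those of 73 bases or more have at least 14.

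Mirtrons were then identified by their coordinates. A hairpin was taken to fill an intron when both its ends lay within 5 bases of the ends of an annotated intron on its strand. Of the annotated hairpins 21 did so, 4 of which were in the table, and 3 of these were late-numbered. All 4 matched their introns to the base, and in all 4 the 3p arm ended at the 3′ end of the intron.

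miR-1020 (WBcel235, chromosome III, 10047746 to 10047815, minus strand) fills a 70-base intron of T16G12.1 and had 840.3 mean normalized counts for its 3p arm. miR-1018 (chromosome X, 1879458 to 1879513, plus strand) fills a 56-base intron, which belongs to the non-coding RNA gene Y59E1B.1 and not to a protein-coding gene, and had 573. miR-4816 (chromosome I, 6185080 to 6185144, plus strand) fills a 65-base intron of T09B4.2 and had 533 for 3p and 194 for 5p. miR-62, the other mirtron of the table, lies in a 58-base intron of ugt-50, which encodes a UDP-glucuronosyltransferase, and had 1512.

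Y59E1B.1 is unusual in that 11 of its 34 introns are each filled by an annotated miRNA hairpin. miR-1018 was the only one of the 11 in the table.

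Of the 29 late-numbered hairpins with a single copy, 10 lay in introns of protein-coding genes on the same strand, 17 outside such genes, miR-1018 among them, 1 in an exon and 1 antisense to an intron. For the other 100 hairpins these counts were 20, 65, 0 and 14, with 1 more antisense to an exon. The intronic late-numbered hairpins had a median summed level of 784 and those outside protein-coding genes one of 573, which is the level of miR-1018, itself in an intron of a non-coding RNA gene. Hosts in the same orientation included gas-1, a subunit of mitochondrial complex I, for miR-1829a, gmps-1, a GMP synthase, for miR-2216 and paic-1, an enzyme of purine synthesis, for miR-1830. In contrast to the 3 mirtrons, these hairpins take up a small part of their introns, which span 1552 bases for miR-1829a, 1549 for miR-2216 and 786 for miR-1830.

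miR-4813 (chromosome III, 4571640 to 4571716, plus strand) lies entirely within the annotated 3′ UTR (4571136 to 4571865) of idhg-1, which encodes a subunit of isocitrate dehydrogenase. By position alone, reads of the hairpin and of that mRNA cannot be told apart. The 3p arm exceeded the 5p arm by 10.3-fold, as given above, with 5p at 64.0, near the lowest level listed (51.5). Whether any of these reads came from the mRNA was not tested. miR-798 lies antisense to an intron of ilcr-1, an interleukin-17 receptor.

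The miR-1829 hairpins all lie in introns on the X chromosome, but far apart and in 3 different genes. miR-1829b (14977119 to 14977178, plus strand) is in F20D1.3, miR-1829c (15236362 to 15236423, minus strand) in piki-1, a phosphoinositide 3-kinase of phagosomes, and miR-1829a (15588311 to 15588370, minus strand) in gas-1. Their arms are annotated at the same place in each hairpin, with spans of 23 and 22 bases and 15 bases between them. miR-1829c had 5418 mean normalized counts and miR-1829b 3909, each for an arm that its name does not give. miR-1829a had 494 for 5p and 91.4 for 3p. Related sequences can share reads, and how the authors divided such reads is not stated, so the split among these 3 is uncertain. miR-4812-5p, at 93.2, comes from another intron of piki-1, 6350 bases from miR-1829c on the same strand, where the levels differed by 58.1-fold.

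miR-5592 is annotated as 2 hairpins of 64 bases on opposite strands of one site on chromosome X, at 13759245 to 13759308 on the minus strand and 13759247 to 13759310 on the plus strand. They overlap in all but 2 bases at each side and lie in an intron of aakb-1, a beta subunit of AMP-activated protein kinase. The table holds a single row for each arm name, with 7141 for 3p and 3088 for 5p, so the reads are not assigned to either strand.

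The X chromosome held 15 of the 30 late-numbered hairpins (50.0%) and 31 of the 100 other placed hairpins (31.0%). Chromosomes II, III and IV held 4 each, chromosome I held 2 and chromosome V held 1. In the annotation the X chromosome holds 35 of the 135 late-numbered hairpins (25.9%). Of these 35, 16 (45.7%) matched a name in the table, against 15 of 100 on the autosomes. For the other annotated hairpins the shares that matched a name were 79.5% on the X chromosome and 79.3% on the autosomes. Although let-7 and miR-58 are in the table, they matched no annotated name and are not counted in these shares as listed. All of these are counts of matched names, for which no test was made.

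Most late-numbered hairpins had no other listed hairpin near them. Another listed hairpin lay within 10000 bases of 4 of the 29 (13.8%) and of 48 of the 100 others (48.0%). Besides the pair in piki-1, these were miR-786 and miR-785. miR-786 lies 32 bases from miR-240 on the same strand of the X chromosome, and the levels were 792 for miR-786-3p, 17819 for miR-240-5p and 2585 for miR-240-3p. miR-785 lies 267 bases from miR-359, also on the same strand, with 3788 for miR-785 and 196 for miR-359. With arms summed, miR-786 and miR-240 differed by 23.1-fold. For miR-785 and miR-359, which had 1 row each, the difference was 19.3-fold. Only listed hairpins counted as neighbours, and 23.0% of annotated late-numbered hairpins matched a name in the table, against 79.4% of the others. The 48 others include the left-out miR-790, miR-791, miR-794, miR-795 and miR-797, but not miR-793. miR-1018 had no listed neighbour, though the unlisted miR-4925 (1879562 to 1879620) fills another intron of Y59E1B.1. Distances to unlisted hairpins were not tested.

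miR-788 and miR-4936 lie outside protein-coding genes. miR-788 is on the X chromosome (8485294 to 8485371, minus strand), 9115 bases from the nearest protein-coding gene, nhr-14, a nuclear hormone receptor. miR-4936 is on chromosome III (3249151 to 3249260, plus strand), 78 bases from Y53G8AL.4. miR-1817 (chromosome I, 10869370 to 10869474, minus strand) lies 481 bases from Y37F4.6, and miR-800 (X chromosome, 380919 to 380991, minus strand) 313 bases from R04A9.3.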

How the data were processed

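Per the labels and the study's methods, total RNA was extracted from 2 HS and 2 CTRL samples with Trizol, and libraries were made with a small RNA kit. The authors mapped reads to *C. elegans* miRNAs and compared the groups with DESeq2. The aligner, the miRNA reference, the treatment of reads with several matches and the DESeq2 version are not given in the sources used here. The deposited signal used here is 1 column, the average of size-factor-scaled counts over the 4 libraries, a meaning taken from the column's name. The table's other 2 value columns hold the authors' fold change of HS over CTRL and its adjusted p, and were not used. Values per library were not analysed here, so depth is unknown and no interval, detection limit or test could be given.

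Levels, ranks and arm ratios were computed in Python 3.11.15 with pandas 2.3.3. Hairpins were placed by name on WBcel235 (Ensembl release 115, counted from 1), the assembly that the study names as WS235 for its long RNA. Of 132 hairpins 130 were placed, among them all 30 late-numbered ones, and let-7 and miR-58 were not. Seeds were read from the study's supplementary lists. The naming, arm and matching steps were tested on made-up input. The late-numbered miRNAs and all lists were chosen with earlier results of these data known. Every late-numbered miRNA is named, and seeds are printed where a list holds them, except on chromosome I. Alternatives were a minimum level of 100, summed arms, the left-out numbers taken in and miR-788-5p left out.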

Additional observations from a re-analysis of the deposited data

How the results depend on the processing

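No paired analysis was possible because each miRNA has a single mean over all libraries, so neither a replicate block nor leaving out a replicate could be run. For the same reason no count model was fitted. The planned counts of seeds shared among all listed miRNAs were not run, since mature sequences were not used here. With no spread between replicates, a value was taken as moved when it changed by over 1.5 times. Of 10 alternatives tried, 7 stayed within that, but some of the 7 could hardly move. The 10 late-numbered miRNAs under 100 carry little of the summed level, and without them the share was 0.641%. For the gap between arms a minimum of 100 left 4 hairpins. A minimum of 100 mean normalized counts left 28 of the 38 late-numbered miRNAs, and their median was 726 in place of 473. Leaving out miR-788-5p lowered their share of the summed level to 0.428%. Summing the arms of each hairpin left 3 of 30 late-numbered hairpins above the median hairpin (4224), where 8 of 38 miRNAs lay above the median miRNA (1512). These counts have different totals and cutoffs, so 3 beside 8 is not a loss of members. The direction of the change in the median and in the share was fixed by what was left out.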
